A study of Mus musculus with 4 samples.

Results

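Dividing cells of the wound were examined 7 days after burn/tenotomy (BT), a mouse injury in which bone later forms at the cut Achilles tendon. A cell was counted as dividing when Mki67, Top2a, Hist1h1b and Hist1h2ap together gave at least 5 UMIs (unique molecular identifiers, each standing for 1 captured transcript) and at least 2 of the 4 genes were detected. This rule took 112 of 2293 cells, namely 71 of 1415 cells of the library that pools replicates 1 & 2 and 41 of 878 cells of the library of replicate 3. Members were then placed in the first lineage they met. Cells with at least 1% of UMIs from Col1a1 and Col1a2 were mesenchyme, cells with at least 1% from Krt5, Krt14, Krt1 and Krt10 were keratinocytes, cells with at least 1 UMI of Ptprc were immune cells, and the remainder is called the rest. By this order 54 members were mesenchyme, 5 were keratinocytes, 24 were immune cells and 29 were in the rest. Since the 4 genes chose the cells, the levels that follow for these genes, and all levels of dividing against other cells, are descriptions with no test.

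Both single-cell libraries came from the tenotomy site of mice labelled Hoxa11CreER;ROSA-LSL-TdTomato;Hif1a fl/fl that had received tamoxifen at 75 mg/kg on each of 5 days, and the cells were not sorted. In this model tamoxifen activates the recombinase in the Hoxa11 lineage of the lower limb, so that Hif1a can be lost and TdTomato switched on in that lineage alone, but the labels name the Cre allele without marking the mice as Cre-positive or Cre-negative, and the study used both. Which cells had recombined is not labelled either. Both libraries share the labelled genotype, injury and time, so no comparison of genotypes was made. A separate readout was 2 Visium sections, A1 and B1, from wild-type C57BL/6 male mice aged 10 weeks, also 7 days after BT. There were 2303 and 1266 barcodes in the pooled library and replicate 3, with totals of 31536402 and 23379476 UMIs, and the medians were 12198 and 16045 UMIs in the cells kept. The libraries shared 1 cell barcode. Fewer than 200 genes were detected in 806 and 305 barcodes and over 20% of UMIs were mitochondrial in 82 and 83, and among these removed barcodes 2 and 3 met the division rule.

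Cells that divide pass through an orderly cycle. Cyclin D and its kinases inactivate the retinoblastoma family, which frees E2F factors to switch on genes for DNA replication in S phase. Histone genes of the replication-dependent kind are transcribed while DNA is copied, whereas genes for spindle, kinetochore and cytokinesis proteins peak in G2 and mitosis under the control of the DREAM and MuvB complexes. Mki67 encodes the protein that coats mitotic chromosomes and Top2a the topoisomerase that untangles DNA. Hist1h1b and Hist1h2ap encode a linker and a core histone. In healing tissue, division of mesenchymal progenitors enlarges the pool from which matrix-producing and skeletal cells arise.

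The promoters of a few of these genes show the elements through which the cycle is read, and they are printed here because the gene lists below move in the same cells. Sequences are the 250 bases before the RefSeq gene start in GRCm38.p6, 5′ to 3′ on the strand of the gene. Capitals mark the CHR element TTTGAA, the CCAAT box CCAAT and the E2F element TTTCGCGC or TTTGGCGC, each searched on both strands. Mki67 lies at chr7:135716380-135716629 on the minus strand, Top2a at chr11:99024190-99024439 on the minus strand, Ube2c at chr2:164769679-164769928 on the plus strand and Mcm6 at chr1:128359706-128359955 on the minus strand.
Mki67: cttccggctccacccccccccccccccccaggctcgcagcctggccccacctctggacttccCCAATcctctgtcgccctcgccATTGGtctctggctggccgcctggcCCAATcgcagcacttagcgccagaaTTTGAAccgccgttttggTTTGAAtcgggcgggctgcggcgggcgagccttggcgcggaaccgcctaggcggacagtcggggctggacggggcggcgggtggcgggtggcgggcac
Top2a: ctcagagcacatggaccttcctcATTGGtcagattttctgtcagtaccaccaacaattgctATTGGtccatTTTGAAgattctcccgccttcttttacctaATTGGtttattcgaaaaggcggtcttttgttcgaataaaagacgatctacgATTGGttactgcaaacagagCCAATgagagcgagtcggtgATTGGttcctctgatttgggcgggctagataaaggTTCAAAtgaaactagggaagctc
Ube2c: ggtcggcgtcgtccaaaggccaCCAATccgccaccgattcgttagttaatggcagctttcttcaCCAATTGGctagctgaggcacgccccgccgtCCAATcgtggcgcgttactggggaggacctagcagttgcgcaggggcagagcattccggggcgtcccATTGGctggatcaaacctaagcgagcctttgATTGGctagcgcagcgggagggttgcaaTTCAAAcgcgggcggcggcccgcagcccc
Mcm6: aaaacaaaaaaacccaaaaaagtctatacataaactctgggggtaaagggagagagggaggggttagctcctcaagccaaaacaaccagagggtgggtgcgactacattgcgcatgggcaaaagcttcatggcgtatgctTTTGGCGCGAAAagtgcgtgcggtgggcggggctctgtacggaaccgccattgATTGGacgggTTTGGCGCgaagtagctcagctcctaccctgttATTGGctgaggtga
The promoter of Mki67 held CHR elements at 116 and 98 bases before the start, and the promoter of Top2a held them at 179 and 23 bases before it. Ube2c, which encodes the ubiquitin-conjugating enzyme of the anaphase-promoting complex, held 1 CHR element at 29 bases before the start, and CCAATTGG marks overlapping CCAAT boxes on opposite strands. Mcm6, which encodes a subunit of the replicative helicase, held no CHR element in this window but E2F elements at 110, 106 and 47 bases before the start, of which the first pair overlap in TTTGGCGCGAAA. Over the window from 250 bases before to 50 after the start, a CHR element stood in 38 of 59 matched genes of the G2 and mitosis list (64.4%) and in 20.2% of 27025 genes in the RefSeq table. CHR element and CCAAT box stood together in 32 of the 59 (54.2%) and in 7.97% of all genes. The list holds 71 genes. An E2F element stood in 0.929% of all genes and in 3 of the 59. For the list of DNA replication and S phase, with 40 of 54 genes matched, under 80% had a value, so its share is void and is not given. A match of letters is a description and not a binding site.

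The 4 rule genes were spread over the members rather than found in every cell. Members held 1359 and 939 UMIs of Mki67, 1143 and 757 of Top2a, 1652 and 1261 of Hist1h1b, and 1522 and 840 of Hist1h2ap in the pooled library and in replicate 3. All 4 genes were detected in 38 and 20 members, 3 genes in 19 and 10, and 2 genes in 14 and 11. UMIs of the 4 genes per member ran from 5 to 360 with a median of 46 in the pooled library, and from 5 to 363 with a median of 45 in replicate 3. Just inside the threshold, 9 and 5 members had 5 or 6 UMIs. Just outside it, 40 and 25 cells had 3 or 4 UMIs, and a further 14 and 6 cells had 5 or more UMIs of a single gene, with 185 UMIs of Mki67 and 10 of Hist1h1b in the pooled library and 44 of Mki67 and 6 of Top2a in replicate 3. No UMI of any of the 4 genes was found in 1056 and 670 cells.

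The share of dividing cells was 5.02% (95% Wilson interval 4.0 to 6.28) in the pooled library and 4.67% (3.46 to 6.27) in replicate 3, and these intervals cover counting error only. In mesenchyme 31 of 400 cells divided (7.75%, 5.51 to 10.8) and 23 of 313 (7.35%, 4.95 to 10.8). In immune cells 16 of 469 divided (3.41%, 2.11 to 5.47) and 8 of 226 (3.54%, 1.80 to 6.83). The mesenchyme share was above the immune share in both libraries, and the intervals overlapped in replicate 3. In the pooled library they were apart by a narrow margin, and they overlapped there when at least 10 UMIs of the 4 genes were asked for (4.06 to 8.77 against 1.63 to 4.68), with the filters on ribosomal UMIs and on the deepest cells (3.73 to 8.50 against 2.39 to 6.17) and without cells of more than 1 lineage (5.30 to 10.6 against 2.11 to 5.47). Keratinocytes gave 4 of 61 (6.56%, 2.58 to 15.7) and 1 of 39 (2.56%, 0.454 to 13.2), and the rest gave 20 of 485 (4.12%, 2.69 to 6.28) and 9 of 300 (3.00%, 1.59 to 5.60). A fixed number of UMIs is easier to reach in a deeper cell, and depth moved with lineage. Median UMIs were 40778 and 43927 in other mesenchyme cells and 8704 and 11294.5 in other immune cells. Among cells with at least 5000 UMIs, thinned to 5000 UMIs each, the rule took 16 of 369 mesenchyme cells (4.34%, 2.69 to 6.93) and 11 of 288 (3.82%, 2.15 to 6.71). It took 11 of 360 immune cells (3.06%, 1.71 to 5.39) and 6 of 188 (3.19%, 1.47 to 6.79). Before thinning the same cells gave 8.40% and 7.64% in mesenchyme and 4.17% and 4.26% in immune cells. At equal depth the lineage intervals overlapped in both libraries.

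**Figure D1:**
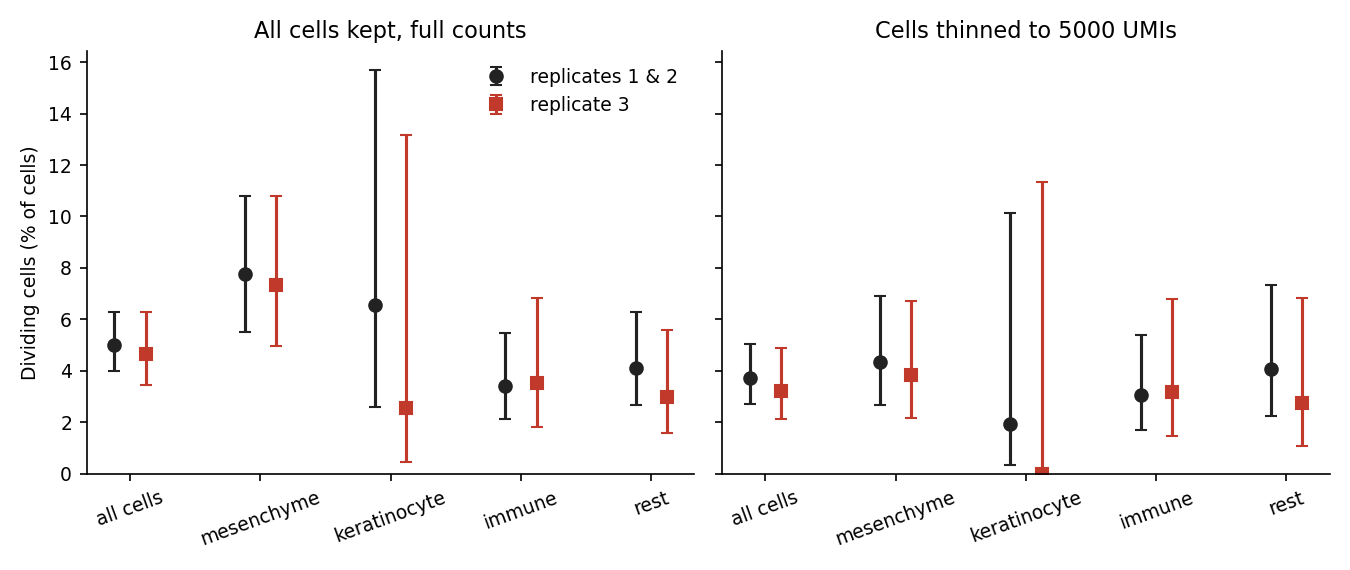
Percent of cells that met the division rule by lineage, for all cells kept (left) and for cells thinned to 5000 UMIs (right). Points are the 2 libraries and bars are 95% Wilson intervals, which cover counting error only. The mesenchyme shares of 7.75% and 7.35% fall to 4.34% and 3.82% at equal depth.

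Dividing cells were also deeper than other cells of their own lineage. Median UMIs were 68937 and 64103 in dividing mesenchyme, 20363.5 and 28993.5 in dividing immune cells and 22671 and 50690 in the dividing rest. Members were 5.02% and 4.67% of the cells and held 11.6% and 9.71% of the UMIs. Since the rule itself takes deep cells more easily, its part in this difference was not tested. Scrublet marked 4 and 3 cells as doublets (0.283% and 0.342%), none of them a member, and all were kept. The conditions of more than 1 lineage were met by 3 members.

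The lineage names were checked against markers the rule did not use. Mesenchyme markers (Pdgfra, Pdgfrb, Dcn, Lum, Col3a1 and Postn) led in 29 of 31 and 23 of 23 dividing mesenchyme cells. Of the remaining pooled cells, 1 was led by keratinocyte markers and 1 by mural markers. Keratinocyte markers summed to 1060 and 15 CPM in dividing mesenchyme. All 5 dividing keratinocytes were led by keratinocyte markers. Dividing immune cells were of different kinds in the libraries, with 10 T or NK, 5 myeloid and 1 keratinocyte-led cell in the pooled library and 5 myeloid, 1 T or NK, 1 B and 1 mesenchyme-led cell in replicate 3. Neutrophil and mast cell markers were at 0 UMIs in dividing immune cells of both libraries. The dividing rest was mixed, with 7 mural, 6 mesenchyme, 4 endothelial and 2 keratinocyte-led cells and 1 with no lead in the pooled library. In replicate 3 it held 5 keratinocyte-led, 2 mesenchyme-led, 1 endothelial and 1 mural cell. The immune and rest groups are therefore called by their rule.

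The balance of histone against non-histone rule genes set members apart. Histones made up 0 to 100% of the UMIs of the 4 genes in a member, with medians of 53.4% and 43.9%. The medians were 22.7% and 23.1% in dividing mesenchyme, 58.6% and 44.0% in immune cells and 66.1% and 60% in the rest. A second axis, the UMIs of the G2 and mitosis list as a percent of that list and the S phase list together, had medians of 63.7% and 79.3% in mesenchyme, 58.5% and 71.8% in immune cells and 59.0% and 71.9% in the rest. In each of these 3 lineages replicate 3 lay above the pooled library on this axis. With limits drawn after the plot was seen, at 25% for histones and 50% for the list share, 42 and 23 members were histone-rich, 18 and 17 were histone-poor with G2 and mitosis UMIs in the majority, and 11 and 1 were histone-poor without that majority. Near a limit, within 5 percentage points, were 5 and 4 members. In mesenchyme the classes held 15, 11 and 5 cells in the pooled library and 11, 12 and 0 in replicate 3. These classes are ranges of a score and not cell types.

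**Figure D2:**
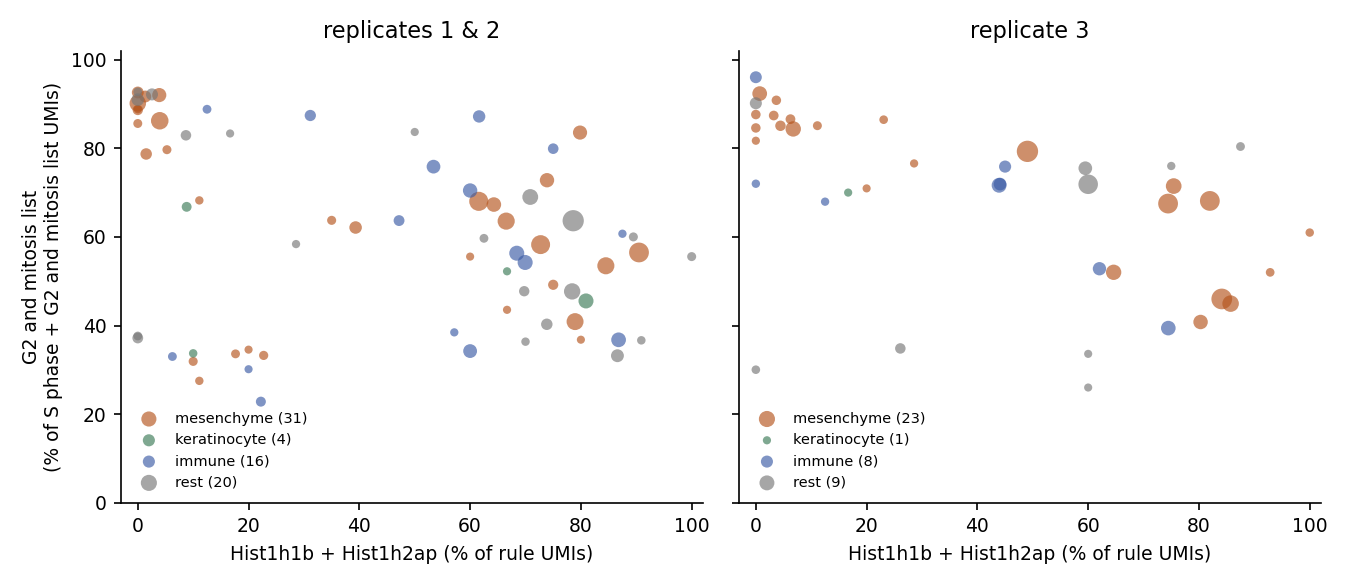
Each dividing cell by the histone percent of its rule-gene UMIs (x axis) and the percent of G2 and mitosis UMIs among G2 and mitosis plus S phase UMIs (y axis), for the pooled library and replicate 3. Colours are lineages and point size grows with the UMIs of the 4 genes, which ran from 5 to 363. Members fill the whole range of 0 to 100% on the histone axis.

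In mesenchyme the rule genes stood far above the level in other cells. In CPM (counts of a gene scaled to a common total of UMIs over the summed cells), Mki67 was 376 and 414 CPM in dividing mesenchyme of the pooled library and replicate 3, against 9.7 and 5.6 CPM in other mesenchyme. Top2a was 298 and 317 CPM against 2.4 and 3.1. Hist1h1b was 381 and 632 CPM and Hist1h2ap 333 and 417 CPM. In dividing immune cells Mki67 was 608 and 759 CPM, Top2a 566 and 729, Hist1h1b 884 and 721 and Hist1h2ap 962 and 631. In the dividing rest Mki67 was 512 and 441 CPM. The CPM level was lower in dividing mesenchyme than in dividing immune cells for each of the 4 genes in both libraries. Because the rule asks for a fixed number of UMIs, a deeper cell can pass it at a lower CPM. Dividing mesenchyme was the deeper group, with median UMIs of 68937 and 64103 against 20363.5 and 28993.5 in dividing immune cells. The part of the rule in this CPM order was not tested. In UMIs of the 4 genes per cell the order differed between libraries, with medians of 66 and 32 in mesenchyme members, 57 and 86.5 in immune members and 31 and 16 in the rest.

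Genes of S phase and of mitosis went with the rule genes. Of 8452 genes with at least 10 CPM in mesenchyme, 417 were 2-fold or more higher in dividing cells in both libraries (4.93%) and 114 were 2-fold or more lower (1.35%). These shares are the background for the lists, and the contrast is the same as that of the rule. The median log2 ratio over all these genes was 0.05 and 0.13. In the G2 and mitosis list 67 of 69 genes were higher, with medians of 3.82 and 4.49 on the log2 scale. Ube2c was at 269 and 241 CPM in dividing and 2.38 and 1.83 in other mesenchyme. Cenpf, a kinetochore protein, was at 278 and 236 CPM against 2.99 and 4.77, and Cdk1, the kinase that drives entry into mitosis, at 215 and 211 against 6.4 and 4.9. Its partner Ccnb1 was at 104.6 and 85.9 CPM against 1.7 and 1.7. In the list of DNA replication and S phase 47 of 50 genes were higher, with medians of 2.36 and 2.53. Mcm6 was at 57.9 and 51.7 CPM against 14 and 13.4, and Pcna, the sliding clamp of the polymerase, at 160 and 175 against 60.4 and 54.8. Other mesenchyme thus kept more of the Mcm6 level of dividing cells than of their Ube2c level.

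The 17 other histone genes at this level gave 14 that were higher, with medians of 3.08 and 3.75. The members' share of a gene's UMIs separated these histones, and it was 11.6% and 9.71% for all genes together. Members held 91.2% and 86.6% of the UMIs of Hist1h2ae, 93.2% and 89.8% of Hist1h2ab and 96.5% and 88.9% of Hist1h3c. Hist1h1e, a linker histone, was intermediate at 65.2% and 65.7%. Hist1h1c was at 18.6% and 15.8%, and Hist1h2bc at 8.09% and 9.46% was near the share of all UMIs. Chromatin and tubulin genes of dividing cells were higher in 23 of 30, with medians of 1.59 and 1.85.

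**Figure D3:**
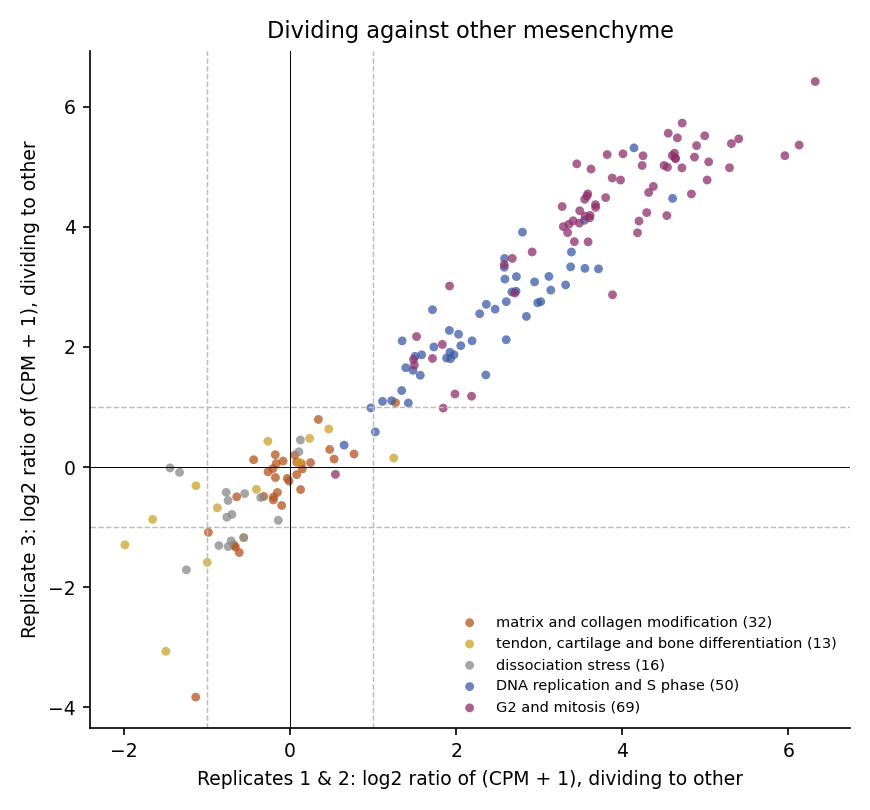
Log2 ratio of dividing to other mesenchyme (CPM + 1) in the pooled library (x axis) and in replicate 3 (y axis) for genes of 5 lists with at least 10 CPM, 1 point a gene and 1 colour a list. Dashed lines mark 2-fold. The G2 and mitosis genes (medians 3.82 and 4.49) lie beyond the S phase genes (2.36 and 2.53), and the matrix genes lie around 0 (-0.13 and -0.10).

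Of 17 cyclin D and G1/S regulators, 6 were 2-fold or more higher in dividing mesenchyme in both libraries and 0 were lower, against 4.93% and 1.35% of all genes. The medians were 0.69 and 0.52, and 12 of the 17 had a higher and 3 a lower level in both libraries. Summed, the list was at 632 and 634 CPM in dividing and 542 and 544 CPM in other mesenchyme. E2f1 was at 25.5 and 37.7 CPM in dividing and 5.6 and 8.1 in other mesenchyme. Ccne1, cyclin E, was at 27.3 and 16.1 CPM against 7.4 and 7.1. The D cyclins moved in different directions, with Ccnd1 at 34.7 and 14.7 CPM against 11.3 and 9.2 and Ccnd2 at 69.4 and 105 CPM against 122 and 153. Ccnd3 was at 54.6 and 62.9 CPM against 56.3 and 52.8, and Cdk4, the kinase partner of the D cyclins, at 156 and 172 against 121 and 119. Myc was at 61.6 and 57.3 CPM against 103 and 98.7, below the level of other mesenchyme in both libraries.

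Among 14 CDK inhibitors and related brakes, 3 were 2-fold or more higher and 1 was lower in both libraries, against 4.93% and 1.35% of all genes. The 3 higher genes were Cdkn2c (80.1 and 60.1 CPM against 16.2 and 16.0), Cdkn2d (81.9 and 75.5 against 20.8 and 17.8) and Cdkn3 (81.0 and 85.9 against 4.9 and 3.8), of which the first pair encode inhibitors of cyclin D kinases and the last a phosphatase that acts on CDKs. Cdkn1c, a broad CDK inhibitor of quiescent cells, was at 87.0 and 87.3 CPM in dividing and 184 and 369 in other mesenchyme, with log2 ratios of -1.07 and -2.07. Cdkn1a, a target of p53, was at 58.8 and 51.0 CPM against 74.7 and 63.3, and Cdkn1b at 55.1 and 74.1 against 72.4 and 68.2. Btg2, an antiproliferative gene, was at 168 and 147 CPM against 263 and 288.

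Of 32 genes for matrix and collagen modification, 1 was 2-fold or more higher and 1 lower in both libraries, near the 4.93% and 1.35% of all genes. The medians of the matrix list were -0.13 and -0.10. Summed over the list, dividing mesenchyme had 70366 and 61442 CPM and other mesenchyme 76158 and 79248 CPM. Tnc, tenascin C of healing tendon, was at 2509 and 2486 CPM against 1041 and 1182. Eln, elastin, was at 77.3 and 27.9 CPM against 171 and 411. Of 13 genes of tendon, cartilage and bone differentiation, 0 were 2-fold or more higher and 2 lower in both libraries, namely Col9a1 and Alpl, against 1.35% of all genes lower. The medians were -0.56 and -0.37, and 4 of the 13 had a higher and 8 a lower level in both libraries. In dividing mesenchyme Col9a1 was at 8.3 and 2.1 CPM and Alpl at 4.2 and 0 CPM. A count of 3 is 1.39 and 2.10 CPM there, so these ratios rest on few UMIs. Scx, the tendon transcription factor, was at 337 and 324 CPM against 244 and 208, and Acan, the cartilage proteoglycan, at 712 and 424 against 660 and 402. Sox9, the factor that drives cartilage formation, was at 89.4 and 34.2 CPM against 180 and 105 and so was lower in dividing cells of both libraries. Of 29 glycolysis and HIF-1 target genes, 1 was 2-fold or more lower, against 1.35% of all genes, namely Pfkfb3 at 11.1 and 3.5 CPM against 24.4 and 11.5. Of 16 genes of dissociation stress, 14 had a lower level in both libraries, as had 2425 of all 8452 genes. Of the 16, 1 was 2-fold or more lower, against 1.35% of all genes, namely Atf3 at 149.5 and 123 CPM against 357 and 405. Hemoglobin transcripts headed the genes lower in dividing mesenchyme, with Hbb-bs at 56.0 and 14.7 CPM against 269 and 673, and their part in the other values was not tested.

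In immune cells 723 of 8631 genes were higher (8.38%) and 525 were lower (6.08%), with 66 of 70 G2 and mitosis genes and 43 of 51 S phase genes higher. Ube2c was at 404 and 429 CPM in dividing and 2.68 and 1.51 in other immune cells. S100a9, a neutrophil gene, was at 0 UMIs in dividing immune cells of both libraries and at 2059 and 1468 CPM in other immune cells, and markers of mast cells also headed the lower genes. The mix of cell kinds thus differed between dividing and other immune cells. In the rest 523 of 9599 genes were higher (5.45%) and 454 lower (4.73%), with 68 of 71 and 51 of 54 of the division lists higher. In keratinocytes, where 4 and 1 cells divided, 3.07% of 7556 genes were higher and 3.49% lower. There 8 of 31 G2 and mitosis genes and 5 of 39 S phase genes were higher in both libraries, and the medians were 2.82 and 2.56 in the pooled library and 0 and -2.10 in the single cell of replicate 3. Of the 4 pooled cells, 1 held 188190 of their 317669 UMIs and met the conditions of 2 lineages. Lor and Flg of the cornified layer were among the 5 lowest.

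Whether dividing cells of different lineages differ in division genes was tested by edgeR's quasi-likelihood test on 14 sums of library, lineage and state. Dividing mesenchyme and dividing immune cells differed in 1354 higher genes (10.3% of 13136) and 1858 lower genes (14.1%). Of the 54 genes of DNA replication and S phase, 15 were lower and 0 higher in mesenchyme, with a median log2 difference of -0.77 against -0.03 over all genes (at an unadjusted p under 0.05, 26 were lower and 1 higher). The 71 genes of G2 and mitosis gave 3 higher and 9 lower, with a median of -0.12, but this split turned with the setting. It was 8 higher and 3 lower with no filter on low counts (median 0.16) and 5 higher and 3 lower without cells of more than 1 lineage (median 0.18). Lower genes were also 12 of 37 other histone genes and 12 of 30 chromatin and tubulin genes. Summed over lists, the S phase genes were at 2710 and 2618 CPM in dividing mesenchyme and 4968 and 3184 CPM in dividing immune cells. The G2 and mitosis genes were at 7185 and 7911 against 7965 and 8621 CPM. In replicate 3, 1 immune member led by mesenchyme markers held 749 of the 2009 G2 and mitosis UMIs of dividing immune cells. The order of the G2 and mitosis sums in replicate 3 rests on that cell.

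Helicase genes led the S phase list. Mcm3 was at 54.2 and 44.0 CPM in dividing mesenchyme and 203 and 124 in dividing immune cells, a log2 difference of -1.82 ± 0.31 (SE, edgeR adjusted p = 0.0019). Mcm6 was at 57.9 and 51.7 CPM against 193 and 116 (-1.59 ± 0.29, adjusted p = 0.0025), and Mcm7 at 36.6 and 35.6 against 107 and 90.1 (-1.53 ± 0.27, adjusted p = 0.0024). Pola1, the catalytic subunit of DNA polymerase alpha, was at 21.8 and 23.1 CPM against 78.2 and 60.1 (-1.71 ± 0.30, adjusted p = 0.0021). The libraries did not overlap between lineages for any of these genes. With members chosen on cells thinned to 5000 UMIs, and the full counts of those members kept, 2 of the 54 genes were lower and the median was -0.47. This left 16 and 11 mesenchyme and 11 and 6 immune members, so that equal depth and fewer cells cannot be told apart. Mcm3 and Pola1 kept adjusted p values of 0.046 and 0.039, and Mcm6 and Mcm7 had 0.081 and 0.061. With all counts thinned, 0 of 46 tested genes of the list passed, with a median of -0.34 against 0.17 over all genes, and without cells of more than 1 lineage 8 were lower. In log2 ratios of CPM + 1, without the scaling of the fit, the median of the list was -0.31 in replicate 3 alone and -0.81 in the pooled library alone.

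Of the 20 cyclin D and G1/S regulators, 1 was higher and 4 were lower in dividing mesenchyme, against 10.3% and 14.1% of all genes. Rb1, the retinoblastoma protein, was at 14.4 and 8.4 CPM in dividing mesenchyme and 60.0 and 90.1 in dividing immune cells (-2.67 ± 0.34, edgeR adjusted p = 2.9e-04). Its relatives Rbl1 (-2.09 ± 0.33, adjusted p = 0.0011) and Rbl2 (-2.13 ± 0.31, adjusted p = 7.5e-04) were lower as well, and so was E2f2. Cdk4 was higher at 156 and 172 CPM against 93.9 and 77.2 (0.84 ± 0.24, adjusted p = 0.026). Ccnd1, Ccnd2 and Ccnd3 missed the threshold, with adjusted p of 1.00, 0.819 and 0.138. Of 14 CDK inhibitors and brakes, 3 were higher and 5 lower. Cdkn1a was at 58.8 and 51.0 CPM against 154 and 459 (-2.55 ± 0.56, adjusted p = 0.0074). Cdkn1c was at 87.0 and 87.3 CPM against 5.2 and 4.3 (4.07 ± 0.93, adjusted p = 0.0092), and Gas1, a membrane protein of growth arrest, at 185 and 255 CPM against 5.2 and 0 (6.04 ± 0.65, adjusted p = 1.2e-04). Those immune values rest on no more than 2 UMIs, and the ratio of CPM was 16.7 (exact 95% counting interval 4.56 to 139) and 20.4 (3.59 to 810.3) for Cdkn1c and 35.4 (9.74 to 293) for Gas1 in the pooled library. With members chosen at equal depth, Rb1, Rbl1, Rbl2, Cdk4, Cdkn1a, Cdkn1c and Gas1 kept their calls and E2f2 did not (adjusted p = 0.056).

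In the chromatin and tubulin list 1 of 30 genes was higher and 12 were lower. Lbr, the lamin B receptor, was at 47.2 and 48.2 CPM against 180 and 193 (-2.03 ± 0.22, edgeR adjusted p = 1.2e-04), and Lmnb1, lamin B1, at 98.1 and 110 against 386 and 279 (-1.75 ± 0.27, adjusted p = 0.0010). Hmgb2, a chromatin protein, was at 631 and 862 CPM against 3078 and 1124 (-1.52 ± 0.36, adjusted p = 0.011), a wide gap in the pooled library and a narrow one in replicate 3. Of the 3 higher and 9 lower genes of the G2 and mitosis list, only 1 of the higher genes is given here. Anln, the actin-binding anillin of the cleavage furrow, was at 131 and 154 CPM against 13.0 and 72.9 (1.88 ± 0.55, edgeR adjusted p = 0.029). With members chosen at equal depth its adjusted p was 0.062. Its pooled immune value depends on few UMIs, since 3 counts are 7.82 CPM there. Matrix genes were higher in 31 of 32, which follows the collagen rule for the lineage. Thbs4 had no UMI in dividing immune cells of either library and was at least 142.7-fold higher in mesenchyme, taking 3 counts per library as the floor.

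Some of these differences were also present between cells that missed the rule, which include the cells with 3 or 4 UMIs and those with a single rule gene. Other mesenchyme against other immune cells gave 3743 higher genes (28.5%) and 3450 lower genes (26.3%). There Rb1 differed by -2.13 ± 0.22 (edgeR adjusted p = 1.4e-05), Cdkn1a by -3.05 ± 0.53 (adjusted p = 6.1e-04), Gas1 by 7.11 ± 0.44 and Cdk4 by 1.64 ± 0.20 on the log2 scale. Mcm3 differed by -1.53 ± 0.29 (adjusted p = 0.0011), while Mcm6 (-0.28 ± 0.26, adjusted p = 0.392) and Mcm7 (0.16 ± 0.26, adjusted p = 0.625) did not pass. The difference of the dividing-to-other ratio between mesenchyme and immune cells was tested directly, and 0 genes were higher (0.0%) and 0 lower (0.0%) by edgeR, with 502 and 900 at an unadjusted p under 0.05 and a smallest adjusted p of 0.0805. DESeq2 called 84 and 120. In simulated data this test recovered 55% of genes changed by 2 on the log2 scale and 4% of those changed by 1. The simulation gave all lineages the same mean profile and all genes the same dispersion, and it changed no gene of low level. These rates therefore need not hold for the real sums.

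**Figure D4:**
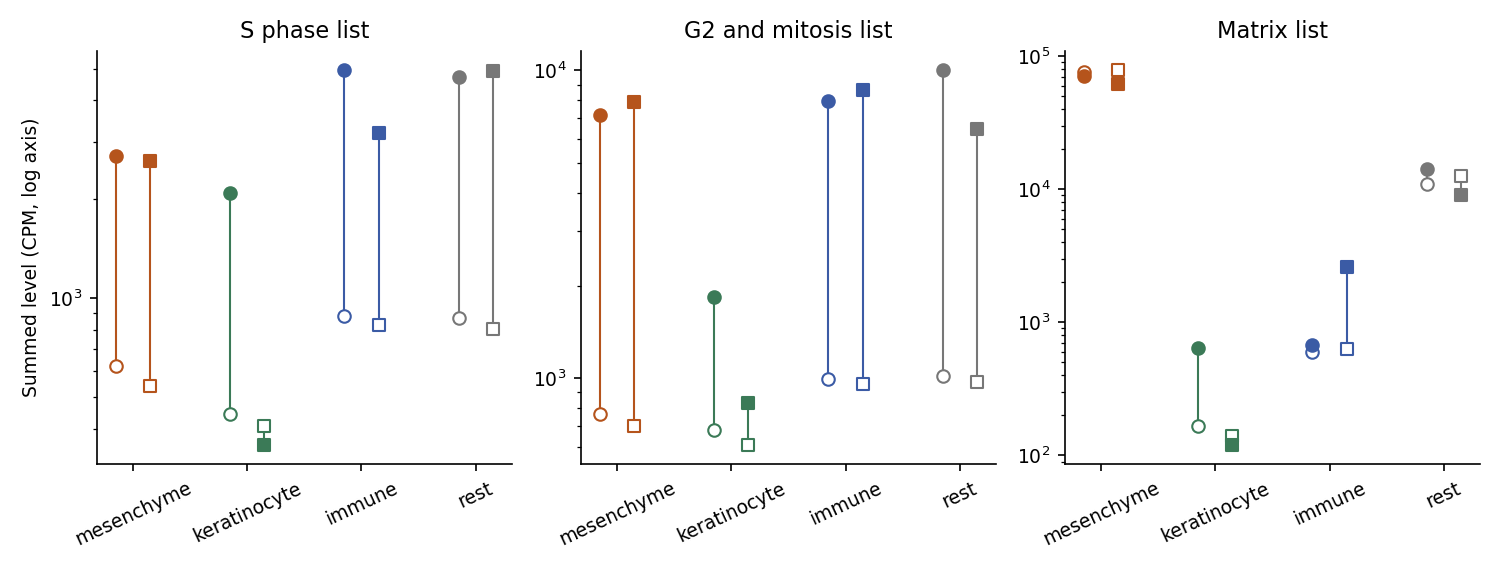
Summed levels of the S phase, G2 and mitosis and matrix lists by lineage in CPM on a log axis. Filled markers are dividing cells and open markers other cells, circles are replicates 1 & 2 and squares are replicate 3. In mesenchyme the S phase list is at 2710 and 2618 CPM in dividing cells, below the dividing immune cells at 4968 and 3184 CPM.

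Dividing mesenchyme against the dividing rest gave 690 higher genes (5.25%) and 414 lower genes (3.15%). With total-count scaling the split was 478 and 639, and the median of all genes moved from 0.02 to -0.18, so changes are relative to that shift. The S phase list had 8 of 54 genes lower and 0 higher, with a median of -0.75. In CPM without the scaling of the fit, 49 of the 54 were lower and 1 was higher in both libraries. On that scale 26 of the 71 G2 and mitosis genes were also lower and 3 higher. All genes were not counted this way, so the 49 include the shift above. With total-count scaling 15 were lower, with DESeq2 14 and with the filters on ribosomal UMIs and on the deepest cells 5. The checks at equal depth could not be run here, since they left 4 dividing rest cells in replicate 3, under the minimum of 5. Median UMIs were 68937 and 64103 in dividing mesenchyme and 22671 and 50690 in the dividing rest. The part of depth in the S phase difference was not tested. Mcm4 was at 36.6 and 30.7 CPM against 109 and 131 (-1.58 ± 0.25, edgeR adjusted p = 0.0036). The G2 and mitosis list gave 0 calls in 71 genes by edgeR, with 2 and 2 at an unadjusted p under 0.05. Ccnd1 was far lower in mesenchyme, at 34.7 and 14.7 CPM against 218 and 431 (-3.42 ± 0.40, adjusted p = 7.8e-04), and Ccnd2 was at 69.4 and 105 CPM against 259 and 517 (-1.91 ± 0.33, adjusted p = 0.0051). Myc was higher at 61.6 and 57.3 CPM against 35.0 and 13.1 (1.49 ± 0.36, adjusted p = 0.029), and its adjusted p was 0.067 with total-count scaling. Among glycolysis and HIF-1 targets 6 of 35 were higher and 0 lower, among them the collagen-modifying enzymes Plod2 (424 and 326 CPM against 66.2 and 47.0), P4ha2, P4ha1 and Lox. The collagen rule for the lineage separates these same groups, and matrix genes were higher in 27 of 32. The part of that rule in the levels of these enzymes was not tested. The rest was led by mural cells in the pooled library and by keratinocyte markers in replicate 3, and the part of that mix in these values was not tested.

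**Figure D5:**
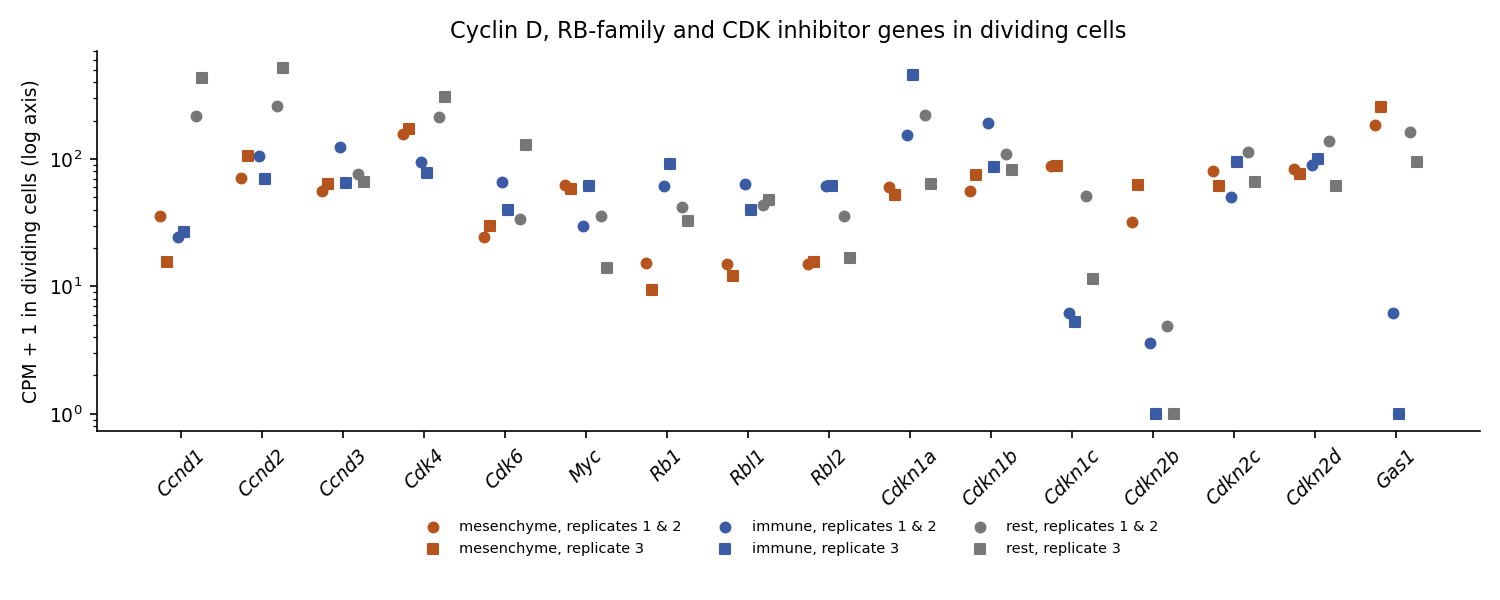
Levels of cyclin D, retinoblastoma-family and CDK inhibitor genes in dividing cells of mesenchyme, immune cells and the rest, as CPM + 1 on a log axis, with circles for replicates 1 & 2 and squares for replicate 3. Rb1 is lower in dividing mesenchyme (14.4 and 8.4 CPM) than in dividing immune cells (60.0 and 90.1 CPM), and Ccnd1 is lower in mesenchyme (34.7 and 14.7 CPM) than in the rest (218 and 431 CPM).

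Visium sections gave levels of the same genes in wild-type tissue without a choice of dividing cells. Spots with at least 100 UMIs were classed by the collagen, keratin and Ptprc parts of the rule. Mesenchyme-class spots numbered 3210 in A1 and 2397 in B1, keratinocyte-class spots 106 and 249 and rest spots 180 and 465. Immune-class spots, 8 and 74, were left out of the tests. A spot holds several cells, so fewer dividing cells and less RNA per dividing cell cannot be told apart. Mki67 was at 41.7 and 52.3 CPM in mesenchyme-class spots (exact 95% Poisson intervals 33.4 to 51.5 and 42.0 to 64.3), and at 51.7 and 71.1 CPM in keratinocyte-class spots (19.0 to 112 and 41.4 to 114). The difference of -0.47 on the log2 scale did not pass (edgeR adjusted p = 0.546). Hist1h2ap has no probe. Summed, the S phase list was at 2267 and 2706 CPM in mesenchyme-class spots and the G2 and mitosis list at 2974 and 3651. Other mesenchyme cells had 622 and 541 CPM and 763 and 700 CPM of these lists. Dividing mesenchyme cells had 2710 and 2618 CPM and 7185 and 7911 CPM. Spots were read by probes, so their CPM are not on the scale of the cells. The part of background in the spot levels was not tested. Of 6658 genes, 614 were higher (9.22%) and 646 lower (9.7%) in mesenchyme-class than keratinocyte-class spots, and total-count scaling gave 766 and 527. In the S phase list 1 of 25 tested genes was lower, Rrm1, the large subunit of ribonucleotide reductase (-1.32, adjusted p = 0.029). The G2 and mitosis list gave 0 of 34 by edgeR. Cdkn1a was lower, at 401 and 438 CPM against 1051 and 1016. Against rest spots 460 genes were higher (6.91%) and 1024 lower (15.4%), and the division lists gave 4 of 25 S phase genes lower and, in G2 and mitosis, 2 of 34 higher and 5 lower. With total-count scaling the split was 203 and 1176. Several calls in the division lists depend on few UMIs. The A1 rest spots held 68912 UMIs, and the 2 UMIs of Mki67 were 29.0 CPM there. Exo1 and Cenpf, both called lower, were at 14.5 and 43.5 CPM in those spots. Hjurp, also called lower, was higher in A1 (45.6 against 14.5 CPM) and lower in B1 (56.9 against 227 CPM).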

How the data were processed

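Values were the raw UMI counts that the authors deposited, made with Cell Ranger 5.0.1 on mm10 for cells and with Space Ranger 2.0.1 for Visium spots. Cells were kept with at most 20% mitochondrial UMIs, a limit of the study, and at least 200 genes. The study's further filters (under 5% ribosomal UMIs, very high UMIs or genes) were an alternative, which left 21 and 15 dividing mesenchyme cells in place of 31 and 23. Counts were summed per library, lineage and state and fitted with edgeR 4.0.16 in R 4.3.3 (TMM, its filter on low counts, quasi-likelihood, Benjamini-Hochberg over all genes, threshold 0.05), with the library as a block because its groups come from the same mice. The pooled library combines mice, so p-values measure only the spread between these sums. In the cell fits that spread was estimated over all 14 sums together. These ran from 8 dividing immune cells in replicate 3 to 465 other rest cells in the pooled library. A minimum of 10 cells per sum left no lineage comparison, so 5 was used, chosen after the counts of cells were seen. Keratinocytes had too few cells, and the comparisons with the rest and with other cells were added then. Dividing against other cells is the log2 ratio of CPM + 1. Genes of the tests were named from the largest 4 changes per list, of which not all are printed, plus G1/S regulators and inhibitors. Others, such as Cdk1, Ccnb1 and Pcna, were named outside that choice. Members and lists were chosen with earlier results of these data known. Simulated data, with the same simple settings as for the difference of ratios, gave 80% recovery of log2 changes of 2 and 12% of 1 for mesenchyme against immune cells. Scrublet came from scanpy 1.11.5. The deposited spatial statistics were not used.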

Additional observations from a re-analysis of the deposited data

How the results depend on the processing

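The 1354 higher and 1858 lower genes of dividing mesenchyme against dividing immune cells became 491 and 277 when cells were thinned to 5000 UMIs, and Pola1 then had a log2 difference of 0.24 in place of a negative one. The S phase genes lower in dividing mesenchyme than in immune cells were 15, and 11 with DESeq2, 8 with no filter on low counts, 12 with total-count scaling and 7 with the ribosomal and upper filters on cells. The G2 and mitosis genes gave 0 higher and 1 lower with thinned cells, 2 and 2 with the rule applied to thinned cells and 3 and 6 with DESeq2, in place of 3 and 9. For each library alone, the median of the S phase list was taken from log2 ratios of CPM + 1, without the scaling of the fit. It ranged from -0.81 to -0.31 against immune cells and from -0.99 to -0.84 against the rest, with no test. The fitted medians of -0.77 and -0.75 are on another scale. Against the rest, lower genes were 658 with DESeq2, 681 with no filter on low counts and 639 with total-count scaling, in place of 414. The difference of ratios, with 0 and 0 genes, gave 84 higher and 120 lower with DESeq2, 103 and 117 with no filter, 7 and 5 with at least 10 UMIs of the 4 genes, 12 and 13 with thinned cells, 21 and 2 without cells of more than 1 lineage, 3 and 1 against other cells with 0 UMIs of the 4 genes, and 3 and 3 with the rule applied to thinned cells. Without the replicate block it gave 1 and 1, and the block was kept because lineages of a library come from the same mice. Other mesenchyme against other immune cells gave 2085 lower genes with thinned cells, in place of 3450. Visium mesenchyme-class against keratinocyte-class spots gave 216 higher and 348 lower with DESeq2, 384 and 327 with no filter and 369 higher with no section block. Against rest spots there were 72 and 355 with DESeq2, 975 and 293 with no filter, 190 higher with no section block and 203 higher with total-count scaling. Dividing shares of all cells fell to 3.70% and 3.22% at equal depth, and of mesenchyme to 4.34% and 3.82%. The cause of these shifts was not tested. Depth limits the immune and rest sums, whose floor of 3 counts was 7.82 and 12.9 CPM and 5.84 and 7.84 CPM.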
